A study of Homo sapiens with 12 samples.

Results

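The 10 human genes ADM, VEGFA, ANGPTL4, CA9, NDRG1, ANKRD37, P4HA1, BNIP3, BNIP3L and DDIT4 are known targets of low oxygen that lie outside glycolysis. They were found by symbol among the 58243 human gene identifiers of the count tables, and all 10 had enough counts to be tested. RNA was sequenced from 12 tumours of MCFDCIS cells grown under the skin of athymic nude mice, which lack T cells. MCFDCIS is a human breast line whose xenografts resemble ductal carcinoma in situ. Each of the 4 groups held 3 tumours. They were palbociclib recovery tumours (2 weeks of palbociclib and then a recovery period), vehicle recovery tumours (2 weeks of vehicle and the same kind of recovery), palbociclib initial tumours (collected after 2 weeks of palbociclib) and vehicle initial tumours (collected after 2 weeks of vehicle). Palbociclib, which blocks the kinases CDK4 and CDK6 that drive entry into the cell cycle, was given daily by mouth at 50 mg per kg to tumours that had established for 2 weeks. The labels do not give the length of the recovery, the vehicle, the age of the mice or the number of tumours per mouse. All tumours come from 1 cell line in 1 kind of host, and nothing says that the tumours of a group came from separate mice, so p-values cover only the spread seen among these 12. Tumours are numbered 1 to 3 within a group in the order of deposit, and the numbers tie no tumour to one of another group.

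Cells respond to low oxygen mainly through the hypoxia-inducible factors. Prolyl hydroxylases of the EGLN family need oxygen to mark the alpha subunits HIF1A and EPAS1 for destruction, so that in low oxygen these subunits accumulate, pair with ARNT and bind short DNA elements with the core ACGTG or GCGTG near their target genes. In solid tumours the response raises blood vessel growth signals, buffers acid, changes collagen assembly and removes mitochondria. DDIT4 also responds to other stresses, such as DNA damage and glucocorticoids.

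The promoters are shown because the 10 genes are grouped here as targets of factors that recognise these cores. RefSeq promoters on GRCh38.p14 were matched where a symbol had a single entry, which held for 7 of the 10 genes. VEGFA, NDRG1 and BNIP3L had either no entry or several, which were not told apart. Of the matched promoters 5 are printed as the 250 bases before the RefSeq start, 5′ to 3′ on the gene's own strand. ACGTG and GCGTG were searched on both strands. Matches are in capitals, so that CACGT and CACGC are matches on the opposite strand, and CACGTG holds overlapping ACGTG matches on both strands. The windows are chr9:35673678-35673927 (plus strand) for CA9, chr4:185396591-185396840 (plus) for ANKRD37, chr10:131981924-131982173 (minus) for BNIP3, chr10:72273674-72273923 (plus) for DDIT4 and chr11:10304823-10305072 (plus) for ADM.
CA9: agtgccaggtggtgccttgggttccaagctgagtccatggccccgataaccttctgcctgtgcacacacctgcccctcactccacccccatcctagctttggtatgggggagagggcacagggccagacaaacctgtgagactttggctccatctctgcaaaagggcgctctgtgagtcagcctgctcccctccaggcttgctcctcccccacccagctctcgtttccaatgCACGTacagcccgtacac
ANKRD37: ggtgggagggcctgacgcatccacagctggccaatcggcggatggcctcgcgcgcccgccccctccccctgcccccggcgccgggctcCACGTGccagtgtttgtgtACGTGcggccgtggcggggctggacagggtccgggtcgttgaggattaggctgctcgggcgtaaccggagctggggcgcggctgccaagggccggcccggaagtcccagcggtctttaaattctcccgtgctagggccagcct
BNIP3: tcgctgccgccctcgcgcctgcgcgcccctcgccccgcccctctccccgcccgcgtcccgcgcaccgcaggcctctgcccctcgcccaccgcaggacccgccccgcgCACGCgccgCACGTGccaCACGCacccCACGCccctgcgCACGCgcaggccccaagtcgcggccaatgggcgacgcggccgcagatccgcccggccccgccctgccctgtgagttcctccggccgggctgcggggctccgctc
DDIT4: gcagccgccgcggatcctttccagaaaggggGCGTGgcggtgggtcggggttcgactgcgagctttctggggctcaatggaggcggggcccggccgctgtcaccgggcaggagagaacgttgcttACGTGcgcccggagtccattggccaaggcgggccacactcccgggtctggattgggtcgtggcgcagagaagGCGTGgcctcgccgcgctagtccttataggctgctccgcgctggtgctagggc
ADM: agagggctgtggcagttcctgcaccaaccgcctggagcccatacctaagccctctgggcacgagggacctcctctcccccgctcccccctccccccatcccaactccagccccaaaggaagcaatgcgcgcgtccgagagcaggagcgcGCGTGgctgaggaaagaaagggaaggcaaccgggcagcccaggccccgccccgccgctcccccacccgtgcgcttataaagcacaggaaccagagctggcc

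The match nearest to a start lay in CA9, 18 to 14 bases before it. BNIP3 held 2 matches of ACGTG, both in 1 CACGTG, and 4 of GCGTG, all within the stretch from 143 to 100 bases before the start. ANKRD37 held 3 matches of ACGTG, of which 2 overlap in 1 CACGTG. DDIT4, whose level behaved unlike those of the other genes, held 1 ACGTG and 2 GCGTG, and ADM, whose level changed the most, held 1 GCGTG and no ACGTG. Of the 7 matched genes, 6 held ACGTG and 3 held GCGTG, and all 7 held at least 1 of the cores. Among 35116 promoters of the same length the shares were 18.5% for ACGTG, 32.2% for GCGTG and 43.2% for either. These promoters were not limited to symbols with a single entry. A match is a run of letters, and binding was not measured. In all 7 matched genes the GENCODE gene starts earlier than the RefSeq start used for the window.

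Human genes received between 6613880 and 12352064 counts per library, and mouse genes between 14.2% and 25.4% of all gene counts. The libraries of vehicle initial tumours 2 and 3 stood apart. Transcripts of the mitochondrial genome took 5.32% and 11.2% of their human counts, against 0.674% to 2.64% in the other 10 libraries, and rows that name no gene took 61.9% and 69.1% of all counts, against 37.0% to 57.3%. Results that use vehicle initial tumours are therefore also given without this pair. Epithelial markers were present, none of them at 0, with summed levels of 4763 to 5966 CPM (counts-per-million units, scaled to human library size) in palbociclib recovery, 4742 to 5225 in vehicle recovery, 4859 to 5445 in palbociclib initial and 3962 to 4541 CPM in vehicle initial tumours over 7 genes. Of 13 markers of host cell types searched in the human rows, HBB was at 0 in all 12 libraries and 7, HBB included, were too low to test. Their summed level was 158 to 232 CPM in palbociclib recovery, 143 to 194 in vehicle recovery, 186 to 308 in palbociclib initial and 194 to 282 CPM in vehicle initial tumours. Most of it came from COL3A1 and PECAM1. Of both lists only KRT5, a basal keratin gene, passed a test, at a log2 fold change of 0.74 ± 0.17 for palbociclib over vehicle at the end of treatment (SE, edgeR adjusted p = 0.04), and it did not pass with this pair of libraries left out. The part of other cells in the results below was not tested. In whole tumours fewer cells of a type and less RNA per cell cannot be told apart.

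At the end of treatment 9 of the 10 genes were lower in palbociclib than in vehicle tumours, and only DDIT4 was not. In these 9 the 3 palbociclib tumours all lay below the 3 vehicle tumours. By edgeR's quasi-likelihood test, 1.7% of the 18628 human genes tested were lower at an adjusted p under 0.05, and 11.3% had palbociclib tumours all below vehicle tumours. The median log2 fold change was -1.56 over the 10 genes and 0.0014 over all genes tested. ADM, NDRG1 and CA9 had the lowest fold changes of the 10, and BNIP3L, at -0.70, was nearest to 0 of those that passed.

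Among the secreted products, ADM (chr11:10304680-10307397) encodes adrenomedullin, a peptide that widens blood vessels. It had 5.86, 3.71 and 8.95 CPM in palbociclib tumours, against 42.5, 82.1 and 58.5 CPM in vehicle tumours. Every palbociclib tumour was far below the lowest vehicle tumour, with a log2 fold change of -3.30 ± 0.32 (SE) at an edgeR adjusted p of 0.00021. VEGFA (chr6:43770184-43786487) encodes the main growth factor for blood vessels. It had 105, 129 and 132 CPM in palbociclib tumours and 354, 532 and 343 CPM in vehicle tumours, and the log2 fold change was -1.75 ± 0.22 (SE, edgeR adjusted p = 0.00079). The groups were well apart, and vehicle tumour 2 stood above the other two.

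ANGPTL4 (chr19:8363289-8374373) encodes a secreted inhibitor of lipoprotein lipase. It had 9.32, 8.65 and 16.5 CPM in palbociclib tumours, against 35.5, 139 and 53.6 CPM in vehicle tumours. The log2 fold change was -2.72 ± 0.57 (SE, edgeR adjusted p = 0.037). Vehicle tumour 2 was far above the other two, and without it the value was -1.94 and did not pass. CA9 (chr9:35673856-35681159) encodes a carbonic anhydrase of the cell surface that helps cells to export acid and is widely used as a stain for low oxygen in tumours. It had 1.69, 1.65 and 1.25 CPM in palbociclib tumours, from 19, 16 and 13 counts, against 10.5, 14.6 and 10.4 CPM in vehicle tumours. Its 3 palbociclib values were close together and its log2 fold change was -2.94 ± 0.39 (SE, edgeR adjusted p = 0.001).

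A neighbouring gene bears on CA9, because ARHGEF39 shares 643 of the 1670 exon bases of CA9 and a strand setting for the counting is not given. ARHGEF39 itself averaged 4.29 CPM in palbociclib and 8.98 in vehicle tumours, so reads of the shared bases could not be assigned with certainty, and their part in the CA9 result was not tested.

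Inside the cell, NDRG1 (chr8:133237171-133302022) encodes a stress-response protein of the cytoplasm. It had 81.8, 73.7 and 108 CPM in palbociclib tumours, against 480.3, 1149 and 618 CPM in vehicle tumours, a log2 fold change of -3.09 ± 0.42 (SE) at an edgeR adjusted p of 0.0024. The lowest vehicle tumour was well above the highest palbociclib tumour. P4HA1 (chr10:73007217-73096974) encodes a catalytic subunit of collagen prolyl 4-hydroxylase, which stabilises collagen. It had 76.4, 95.6 and 79.7 CPM in palbociclib tumours and 164, 194 and 159.9 CPM in vehicle tumours, with a log2 fold change of -1.04 ± 0.19 (SE) at an edgeR adjusted p of 0.0088.

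ANKRD37 (chr4:185396021-185400628) encodes a small protein with ankyrin repeats and was the lowest of the 10 per length in vehicle tumours. It had 4.00, 3.40 and 2.79 CPM in palbociclib tumours, from 45, 33 and 29 counts, against 7.34, 10.1 and 7.10 CPM in vehicle tumours. The groups did not overlap, and the log2 fold change was -1.27 ± 0.26 (SE, edgeR adjusted p = 0.019). UFSP2 shares 909 of the 2580 exon bases of ANKRD37, and its own level was 23.4 CPM in palbociclib and 23.3 in vehicle tumours.

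BNIP3 (chr10:131966455-131982013) and BNIP3L (chr8:26382898-26505636) encode related receptors on the outer mitochondrial membrane that hand mitochondria to autophagy. BNIP3 had 27.3, 28.5 and 27.8 CPM in palbociclib tumours, against 60.0, 85.8 and 70.2 CPM in vehicle tumours, a log2 fold change of -1.37 ± 0.18 (SE) at an edgeR adjusted p of 0.0007. Its 3 palbociclib values were the most alike of any of the genes in that group. BNIP3L had 96.4, 109.8 and 106 CPM in palbociclib tumours, against 151, 181 and 176 CPM in vehicle tumours, a log2 fold change of -0.70 ± 0.16 (SE) at an edgeR adjusted p of 0.033. Both were lower without overlap, and the ratio of BNIP3 to BNIP3L in counts per kilobase was 0.229, 0.210 and 0.212 in palbociclib tumours and 0.322, 0.383 and 0.323 in vehicle tumours. Annotated pseudogenes of BNIP3 held 351 counts over the 12 libraries, against 8179 counts of BNIP3 itself.

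DDIT4 (chr10:72273920-72276036) encodes REDD1, an inhibitor of the growth kinase complex mTORC1. It had 299, 294 and 262 CPM in palbociclib tumours and 302, 263 and 188 CPM in vehicle tumours, and the groups overlapped. Its log2 fold change was 0.18 ± 0.23 (SE, edgeR adjusted p = 0.89), with a 95% interval of -0.31 to 0.67. The value was -0.08 when vehicle tumours 2 and 3 were both left out.

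Calls were less stable than directions. Vehicle tumour 2, from the pair of libraries that stood apart, was the highest of its group in 9 genes. Of the fits without 1 library, the one without this tumour gave the least negative values for most genes, and 5 genes passed. These values were -3.02 for ADM, -1.52 for VEGFA, -1.94 for ANGPTL4, -2.76 for CA9 and -2.64 for NDRG1. ANKRD37, P4HA1 and BNIP3 were at -1.08, -0.95 and -1.22. BNIP3L was least negative, at -0.65, without palbociclib tumour 1. With vehicle tumours 2 and 3 both left out, 1 vehicle tumour remained, taken to have the spread of the other groups. The values were then -2.78 for ADM, -1.54 for VEGFA, -2.76 for CA9 and -2.45 for NDRG1. ANGPTL4, ANKRD37, P4HA1, BNIP3 and BNIP3L kept negative values of -1.63, -1.11, -0.97, -1.10 and -0.53. With the share of mouse counts as a covariate, which was 17.0% to 25.4% in palbociclib and 15.5% to 17.4% in vehicle tumours, 5 genes passed. ANGPTL4, ANKRD37, P4HA1 and BNIP3L did not, at values of -2.84, -1.14, -1.06 and -0.74, and over all genes 139 were lower with this covariate, against 317 without it.

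**Figure D1:**
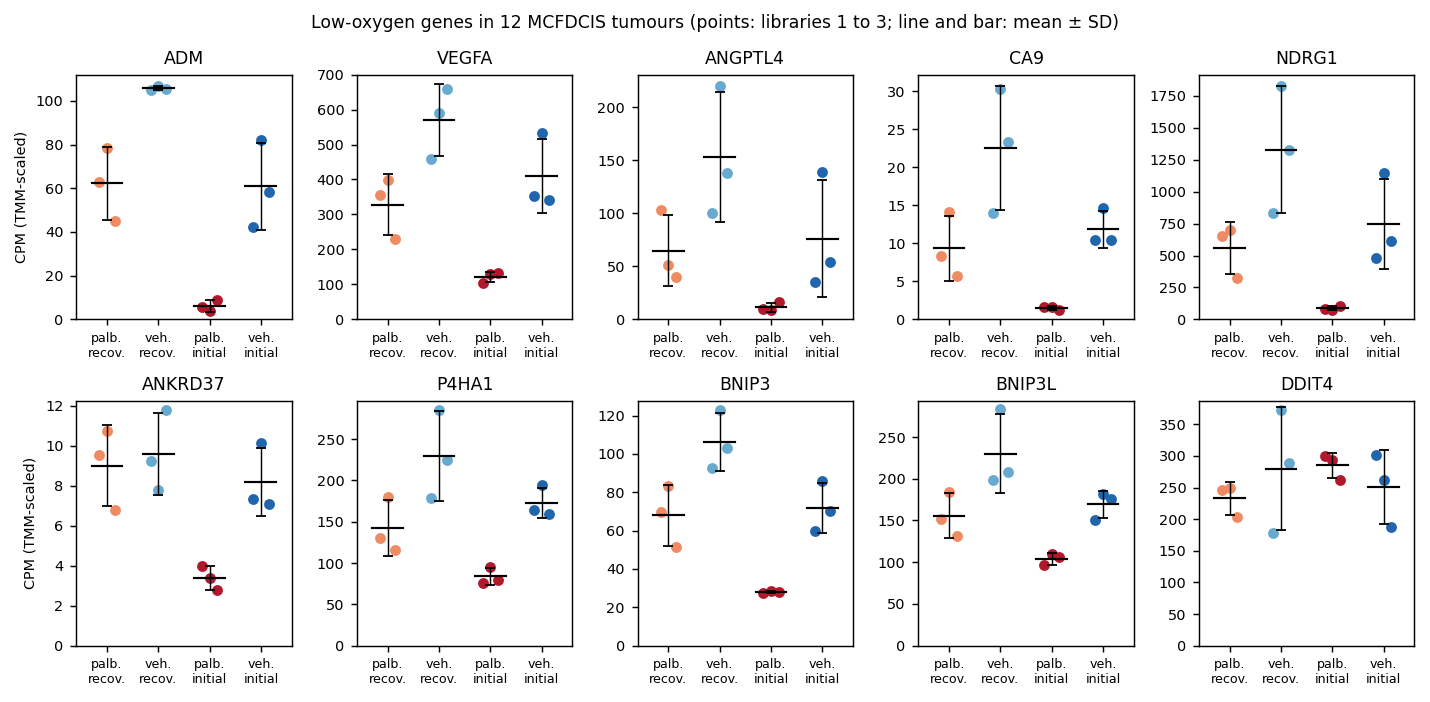
Level of each of the 10 genes in each tumour, in CPM scaled by trimmed mean of M-values on linear axes that start at 0; points are the 3 tumours of a group, with a line at the mean and a bar of 1 SD. In 9 genes the palbociclib initial points all lie below the vehicle initial points, as for ADM at 3.71 to 8.95 CPM against 42.5 to 82.1 CPM, while the DDIT4 points overlap.

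Per length, taking CPM per kilobase of annotated exon, the order of the genes also differed between groups. The length covers all annotated exons of a gene, from 1670 bases in CA9 to 14431 in VEGFA, whichever transcripts the tumours hold. The order between genes within a group therefore depends on the annotation. In palbociclib initial tumours DDIT4 was highest with a mean level of 138, followed by P4HA1 at 27.1 and BNIP3L at 24.2, whose tumours overlapped. NDRG1 at 8.94 and VEGFA at 8.44 overlapped as well, and CA9 was lowest at 0.915, below every tumour's value of ANKRD37, which averaged 1.32. In vehicle initial tumours DDIT4 at 122 overlapped with NDRG1 at 76.2, and NDRG1 with P4HA1 at 55.8. Between BNIP3L at 39.3 and BNIP3 at 13.5 each gene overlapped with its neighbour in the order, while CA9 at 7.09 and ANKRD37 at 3.18 stood apart at the low end. CA9 was thus below ANKRD37 per length in every palbociclib initial tumour and above it in every vehicle initial tumour.

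After recovery all 10 genes had lower fitted levels in palbociclib than in vehicle tumours, but none passed the test. The log2 fold changes lay between -1.27 for CA9 and -0.09 for ANKRD37, with a median of -0.73, against -0.0019 over all genes tested. By edgeR 0 of the 10 had an adjusted p under 0.05, 8 had an unadjusted p under 0.05, as had 1613 of the 18628 genes tested, and DESeq2 also called 0. Only 0.00537% of all human genes passed as lower in this comparison, and 50.3% had negative fold changes.

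The tumours of the groups did not overlap for ADM, VEGFA, NDRG1, BNIP3 and BNIP3L, against 5.51% of all genes with palbociclib tumours all below vehicle tumours. ADM had 62.9, 78.5 and 45.2 CPM in palbociclib recovery tumours, against 105, 107 and 106 CPM in vehicle recovery tumours. The 3 vehicle tumours were almost equal, and the log2 fold change was -0.77 ± 0.27 (SE, edgeR adjusted p = 0.57). VEGFA had 355, 398 and 231 CPM in palbociclib tumours and 457, 591 and 659 CPM in vehicle tumours, at -0.80 ± 0.22 on the log2 scale. NDRG1 had 651, 697 and 325 CPM in palbociclib tumours and 833, 1829.6 and 1324 CPM in vehicle tumours, at -1.25 ± 0.39. In both genes palbociclib tumour 3 was the lowest and lay well below the other two of its group.

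The mitophagy receptors had fold changes of similar size. BNIP3 had 69.5, 83.0 and 51.4 CPM in palbociclib tumours, against 92.9, 123 and 103 CPM in vehicle tumours, at -0.65 ± 0.17 on the log2 scale. BNIP3L had 152, 185 and 131 CPM in palbociclib tumours, against 198, 284 and 208 CPM in vehicle tumours, at -0.56 ± 0.16. Their ratio in counts per kilobase was 0.371, 0.364 and 0.317 in palbociclib and 0.379, 0.350 and 0.401 in vehicle tumours, so that here, unlike at the end of treatment, the groups overlapped.

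In the other 5 genes the groups overlapped. CA9 had 8.27, 14.1 and 5.67 CPM in palbociclib tumours and 14.0, 30.3 and 23.3 CPM in vehicle tumours, at -1.27 ± 0.32 on the log2 scale, and only palbociclib tumour 2 and vehicle tumour 1 met. ANGPTL4 had 103, 51.7 and 39.5 CPM in palbociclib tumours and 100.4, 220.1 and 138 CPM in vehicle tumours, at -1.24 ± 0.52. P4HA1 had 131, 180.1 and 115 CPM in palbociclib tumours and 178, 286 and 225 CPM in vehicle tumours, at -0.69 ± 0.19. In each of these 3 genes the overlap came from 1 tumour of each group. ANKRD37 had 9.53, 10.7 and 6.77 CPM in palbociclib tumours and 9.25, 7.77 and 11.8 CPM in vehicle tumours, at -0.09 ± 0.24 with a 95% interval of -0.60 to 0.42. DDIT4 had 247, 249.7 and 203 CPM in palbociclib tumours and 178, 372 and 289 CPM in vehicle tumours, at -0.26 ± 0.23. In neither gene did the groups follow a clear order, and ANKRD37 turned positive, at 0.08, without palbociclib tumour 3.

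Within the recovery groups the same tumours were high or low in most genes. Palbociclib tumour 3 had the lowest level of its group in all 10 genes and palbociclib tumour 2 the highest in 9. Vehicle tumour 2 was the highest of its group in 8 and vehicle tumour 1 the lowest in 9. Without a filter on low counts 8 of the 10 genes passed as lower in this comparison, but calls grew over all genes as well, to 582 lower and 212 higher of 38457, against 1 lower and 0 higher of 18628 with the filter. No other setting tried called any of the 10.

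**Figure D2:**
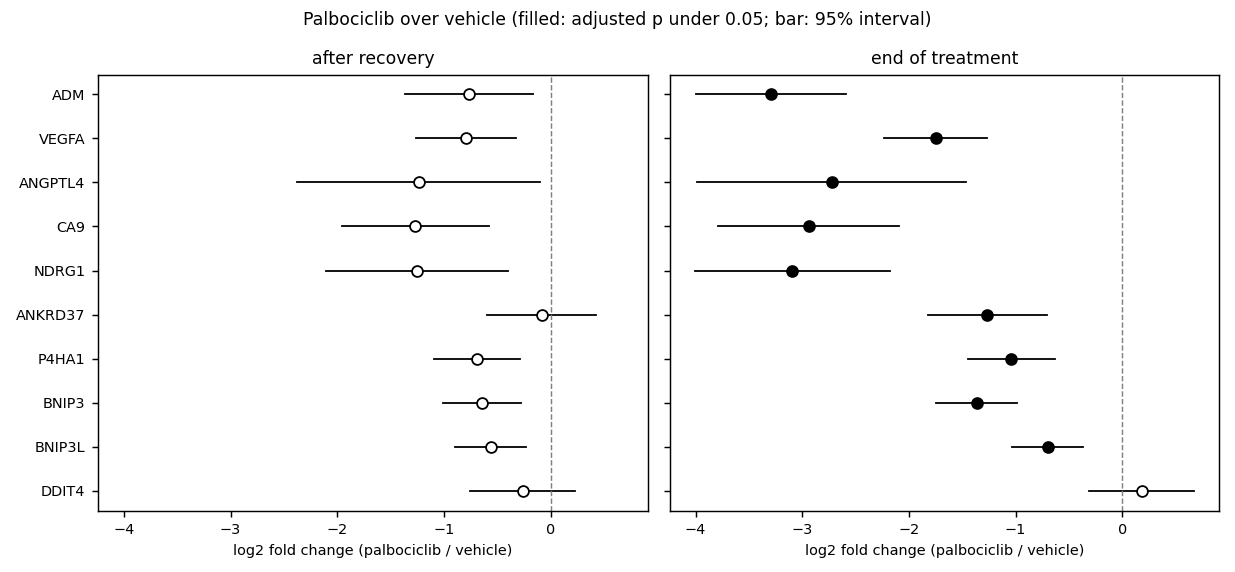
Log2 fold change of palbociclib over vehicle for the 10 genes after recovery (left) and at the end of treatment (right), with bars for 95% intervals and filled points for an edgeR adjusted p under 0.05. After recovery all points lie between -1.27 and -0.09 and none is filled, while at the end of treatment 9 are filled, down to -3.30 for ADM, and DDIT4 lies at 0.18.

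The difference between the palbociclib effects was tested directly, as the log2 fold change after recovery minus that at the end of treatment. Of the 10 genes only ADM passed, with a difference of 2.53 ± 0.42 (SE, edgeR adjusted p = 0.037), from effects of -0.77 after recovery and -3.30 at the end of treatment. Of all genes tested, 0.22% passed with a positive difference. DDIT4 had a negative difference of -0.45 ± 0.32, and the other 8 genes had positive ones without passing, from 0.14 ± 0.22 for BNIP3L to 1.84 ± 0.55 for NDRG1 and with CA9 at 1.67 ± 0.51 and ANKRD37 at 1.18 ± 0.35. For ANKRD37 the 95% interval was 0.43 to 1.93, and the edgeR adjusted p was 0.46.

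The ADM call was not stable, although the value stayed positive. It passed in 4 of 12 fits that each left out 1 library, with values from 2.25 without vehicle initial tumour 2 to 2.88 without palbociclib initial tumour 3, and it was 2.01 without passing when vehicle initial tumours 2 and 3 were both left out. DESeq2 called NDRG1 in addition to ADM. Over all genes DESeq2 called 99 higher and 5 lower, against 41 higher and 0 lower by edgeR.

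Within the palbociclib arm, 8 of the 10 genes were higher after recovery than at the end of treatment. By edgeR 2.36% of all human genes were higher at an adjusted p under 0.05. Since the palbociclib initial tumours serve here as the baseline and in the first comparison as the treated group, the same low values enter both. The median log2 fold change was 1.42 over the 10 genes and -0.011 over all genes.

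ADM had the highest value, at 3.33 ± 0.32 (SE, edgeR adjusted p = 0.00018), with 62.2 ± 16.7 CPM in recovery and 6.17 ± 2.63 CPM in initial tumours (SD, n = 3 each). NDRG1 followed at 2.67 ± 0.41, with 558 ± 203 CPM in recovery and 87.8 ± 17.8 CPM in initial tumours. CA9 was at 2.60 ± 0.39, with 9.34 ± 4.30 CPM in recovery and 1.53 ± 0.24 CPM in initial tumours. In each of these 3 genes the recovery tumours spread more widely in CPM than the initial tumours, without reaching down to them. As a share of the mean, the SD of ADM was smaller in recovery, at 26.8% against 42.7% in initial tumours. That of NDRG1 was larger, at 36.3% against 20.3%, as was that of CA9, at 46.1% against 15.8%.

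ANGPTL4 was at 2.50 ± 0.57 on the log2 scale, VEGFA at 1.43 ± 0.22, ANKRD37 at 1.40 ± 0.25, BNIP3 at 1.28 ± 0.18 and P4HA1 at 0.76 ± 0.19, all past the threshold. BNIP3L, with 156 ± 27.0 CPM in recovery and 104 ± 6.89 CPM in initial tumours (SD, n = 3 each), was at 0.58 ± 0.16 and did not pass (edgeR adjusted p = 0.068). It passed under 4 of 10 other settings, DESeq2 among them (DESeq2 adjusted p = 0.028), and in 1 of 12 fits that left out 1 library. Over all genes DESeq2 called 654 higher, against 439 by edgeR. In these 9 genes every recovery tumour was above every initial tumour, as were the recovery tumours in 14.9% of all genes. DDIT4 ran the other way without passing, at -0.29 ± 0.23 (edgeR adjusted p = 0.64), with recovery tumours all below initial tumours, as in 14.2% of all genes. ANGPTL4 and P4HA1 each passed in 3 of 12 fits that left out 1 library, and without palbociclib initial tumour 3 only 5 genes passed.

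The change in the palbociclib arm minus that in the vehicle arm equals the difference of effects tested above. Of the 10 genes only ADM passed that test, and its call was not stable. Within the vehicle arm all 10 genes had higher fitted levels after recovery than at the end of treatment, without passing. By edgeR 0 of the 10 had an adjusted p under 0.05, 6 had an unadjusted p under 0.05, and DESeq2 called 0. Of all human genes 0% passed as higher by edgeR, 2688 had an unadjusted p under 0.05, and DESeq2 called 46 higher and 37 lower. The log2 fold changes were between 0.16 ± 0.23 for DDIT4 and 1.01 ± 0.52 for ANGPTL4, with a median of 0.52, against -0.0048 over all genes. ADM had 105, 107 and 106 CPM in recovery tumours, against 42.5, 82.1 and 58.5 CPM in initial tumours, at 0.80 ± 0.28 (SE, edgeR adjusted p = 0.32). ADM, BNIP3 and BNIP3L had recovery tumours all above initial tumours, as had 6.7% of all genes. Without a filter on low counts 6 of the 10 passed as higher, and over all genes 837 of 38457 were higher and 287 lower. The ANGPTL4 value lay between 0.65 without vehicle recovery tumour 2 and 1.79 without vehicle initial tumour 2. When vehicle initial tumours 2 and 3 were both left out 0 of the 10 passed, the ANGPTL4 value was 2.11 and the DDIT4 value turned to -0.10.

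**Figure D3:**
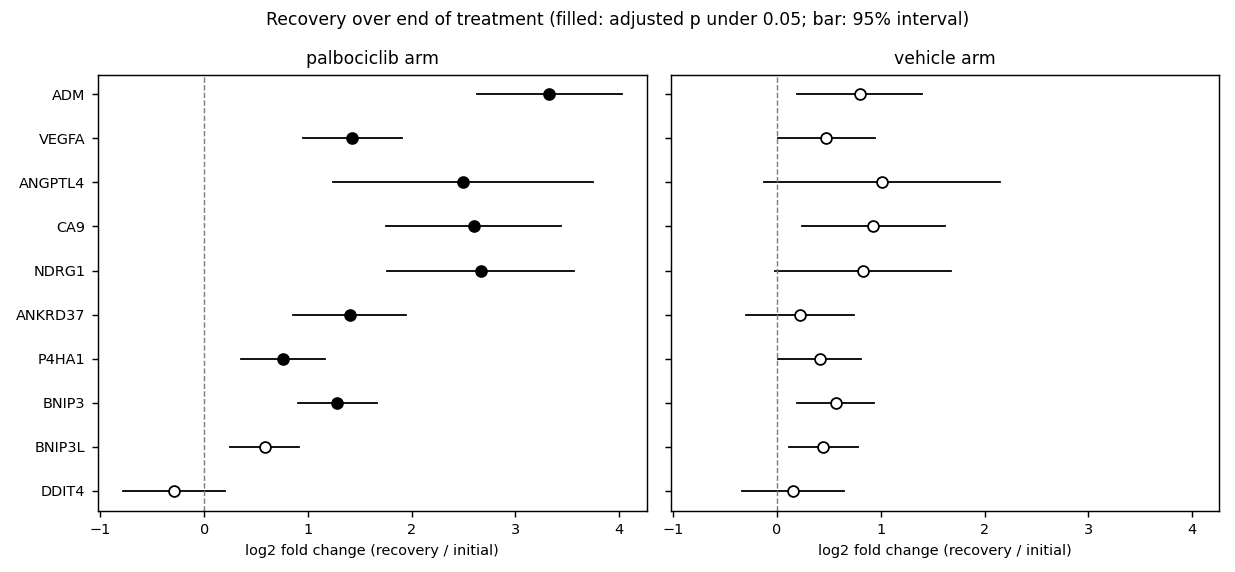
Log2 fold change of recovery over initial tumours for the 10 genes in the palbociclib arm (left) and the vehicle arm (right), with bars for 95% intervals and filled points for an edgeR adjusted p under 0.05. In the palbociclib arm 8 points are filled, up to 3.33 for ADM, and in the vehicle arm all points lie between 0.16 and 1.01 and none is filled.

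Across all 12 tumours the palbociclib initial tumours were the lowest for 9 of the 10 genes, and the exception was DDIT4, which was lowest in vehicle recovery tumour 1. The highest level of a gene was always in vehicle recovery tumour 2, for 8 genes, or vehicle recovery tumour 3, for VEGFA and ANKRD37. DDIT4 averaged 233 ± 26.2 CPM in palbociclib recovery, 279.9 ± 97.2 in vehicle recovery, 285 ± 19.9 in palbociclib initial and 251 ± 58.0 CPM in vehicle initial tumours (SD, n = 3 each), and its spread was widest in vehicle recovery tumours.

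**Figure D4:**
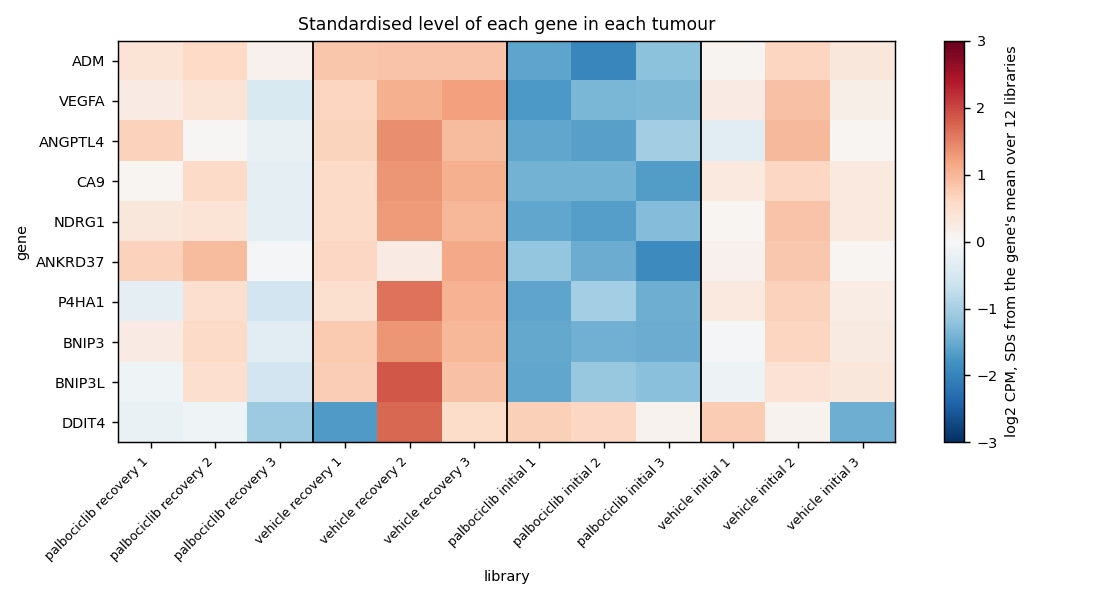
Level of each gene (rows) in each tumour (columns), as log2 CPM in SDs from the gene's mean over the 12 tumours, with red above and blue below the mean. The palbociclib initial columns are blue in 9 rows, and in the DDIT4 row they are not.

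The genes whose level followed the 10 most closely over the 12 tumours were found by comparing standardised log2 CPM with the mean standardised profile of the 10, among 14345 other genes with a symbol. This is a description with no test. The mean absolute difference was 0.163 SD for NDUFA4L2, which encodes a relative of a cytochrome c oxidase subunit, 0.170 SD for the lactate exporter gene SLC16A3, 0.187 SD for the creatine transporter gene SLC6A8 and 0.197 SD for the glucose transporter gene SLC2A1. ISG20, OAS3, RELB and RLF, of which ISG20 and OAS3 are induced by interferon and RELB encodes a subunit of NF-kappaB, were also among the 8 nearest, at 0.187 to 0.204 SD. The median over all genes compared was 1.07 SD.

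Measured the same way, BNIP3 at 0.112 SD, CA9 at 0.120 SD and VEGFA at 0.124 SD lay nearest to the common profile, which they help to form, and DDIT4 at 1.11 SD lay as far from it as a typical gene. NDUFA4L2 averaged 59.5 CPM in palbociclib recovery, 104 in vehicle recovery, 21.5 in palbociclib initial and 62.5 CPM in vehicle initial tumours. SLC2A1 averaged 267 CPM in palbociclib recovery, 492 in vehicle recovery, 88.9 in palbociclib initial and 268 CPM in vehicle initial tumours. Both had the lowest mean in palbociclib initial and the highest in vehicle recovery tumours, as had CA9, NDRG1, ADM and VEGFA.

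The enzymes and factors that sense and signal oxygen formed a list of their own. Of its 13 tested genes 0 passed at the end of treatment by edgeR. An unadjusted p under 0.05 was found for 2 of them, and for 1838 of all 18628 genes tested. DESeq2 called 2 of the list, and 466 lower and 64 higher over all genes. The median log2 fold change of the list was -0.10. EGLN1, the main oxygen-sensing hydroxylase, averaged 75.5 ± 3.33 CPM in palbociclib tumours, against 101 ± 1.51 CPM in vehicle tumours (SD, n = 3 each), a log2 fold change of -0.42 ± 0.11 (SE) at an edgeR adjusted p of 0.073. EGLN3, a hydroxylase that is itself induced by low oxygen, was at -1.10 ± 0.30 (edgeR adjusted p = 0.099), and the alpha subunit gene EPAS1 at -0.45 ± 0.24 without passing. After recovery EGLN1 was 0.44 ± 0.11 higher on the log2 scale than at the end of treatment in the palbociclib arm (edgeR adjusted p = 0.042), a call lost when vehicle initial tumours 2 and 3 were both left out.

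Relatives of the 10 genes, such as PGF beside VEGFA, CA12 beside CA9 and P4HA2 beside P4HA1, did not pass. Of 22 tested relatives 0 passed at the end of treatment by edgeR and DESeq2 called 0, with a median of -0.08. An unadjusted p under 0.05 was found for 3 of them, and for 1838 of all 18628 genes tested. PGF, a growth factor for blood vessels, was at -1.53 ± 0.60 (SE, edgeR adjusted p = 0.40), with 2.78 ± 0.63 CPM in palbociclib tumours, against 8.14 ± 3.59 CPM in vehicle tumours. CA12 was at -0.33 ± 0.15, P4HA2 at -0.50 ± 0.23 and NDRG4 at -0.59 ± 0.27. In the palbociclib arm 1 relative, VEGFB, was higher after recovery than at the end of treatment, at 0.57 ± 0.14 (SE, edgeR adjusted p = 0.044), a call lost under the same omission. The name was chosen after its value was seen. Of the receptors, target enzymes and partners of the 10 products, 15 of 21 were tested, 0 passed, 2 had an unadjusted p under 0.05 and DESeq2 called 0, with a median of 0.008. The bicarbonate transporter gene SLC4A7 was at -0.26 ± 0.09 and the VEGF co-receptor gene NRP2 at -0.96 ± 0.56. The adrenomedullin receptor subunit genes RAMP1, RAMP2 and RAMP3 and the VEGF receptor gene FLT1 had too few human counts to be tested.

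Lower levels were also found among other targets of low oxygen. Of 40 such genes 7 were lower and 0 higher at the end of treatment, with a median of -0.34 and 35 negative values. The lipoprotein receptor gene VLDLR was at -0.84 ± 0.14 (SE, edgeR adjusted p = 0.0035), the glycogen branching enzyme gene GBE1 at -0.72 ± 0.12, the secreted glycoprotein gene STC2 at -1.85 ± 0.34 and the oxidase gene ERO1A at -1.07 ± 0.20. Of 20 genes of glycolysis and of glucose and lactate transport 8 were lower and 0 higher, all 20 values were negative and the median was -0.63. PFKFB4 was at -1.89 ± 0.19 and SLC16A3 at -1.44 ± 0.17. With vehicle tumours 2 and 3 both left out 0 of the 40 and 3 of the 20 passed, and with the mouse share as a covariate 3 and 7. After recovery 0 of these genes passed between palbociclib and vehicle tumours by edgeR. An unadjusted p under 0.05 was found for 16 of the 40 and 14 of the 20, and DESeq2 called 0 and 1. Over all genes DESeq2 called 20 lower and 0 higher there. In the palbociclib arm 6 of the 40 and 11 of the 20 were higher after recovery than at the end of treatment, among them VLDLR at 0.76 ± 0.13 and ERO1A at 1.07 ± 0.20.

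**Figure D5:**
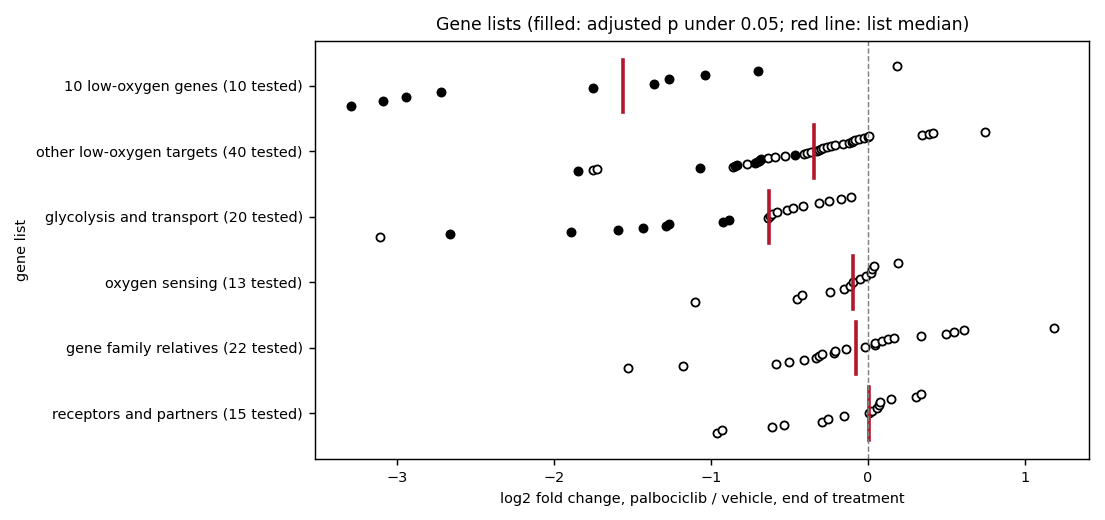
Log2 fold change of palbociclib over vehicle at the end of treatment for each tested gene of 6 lists, with filled points for an edgeR adjusted p under 0.05 and a red line at the list's median. The medians are -1.56 for the 10 genes, -0.34 for 40 other targets, -0.63 for 20 genes of glycolysis and transport, -0.10 for 13 genes of oxygen sensing, -0.08 for 22 relatives and 0.008 for 15 receptors and partners.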

How the data were processed

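RNA was sequenced from 12 xenograft tumours, 3 in each of 4 groups taken from the labels. The authors deposited raw counts per Ensembl gene, human and mouse genes in 1 table per tumour. RNeasy extraction and TruSeq libraries are given per the labels' protocols, and STAR, cutadapt, edgeR, CASAVA 1.8 and the builds GRCm38 and GRCh38 are named, per the submitters' processing notes. How reads were counted, with which strand setting and annotation, and what was done with reads that fit both genomes is not stated there, so reads shared by overlapping or near-identical genes are uncertain.

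The 4 rows of each table that name no gene held 37.0% to 69.1% of counts and were left out. Repeated rows (713, for 484 identifiers) were removed. GENCODE 29 gave symbols to 57980 of 58243 human identifiers, and coordinates on GRCh38. Mouse rows, 54146 identifiers, entered only as a share of counts. No library was taken for a duplicate, since the counts of any pair within a group differed beyond sampling noise (chi-square over its degrees of freedom 4.38 to 57.6).

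Human counts were analysed in R 4.3.3 with edgeR 4.0.16. Library sizes were human totals with trimmed mean of M-values (TMM) scaling, and filterByExpr (minimum count 10, minimum total 15) kept 18628 genes. One quasi-likelihood model (glmQLFit robust, glmQLFTest) of 4 group means over 12 libraries gave 5 comparisons. A gene passed at a Benjamini-Hochberg adjusted p under 0.05 over all genes tested. The biological coefficient of variation was 0.18. Standard errors were computed as the size of the fold change over the square root of F, and 95% intervals from the t distribution. CPM are TMM-scaled, and levels between genes are given per kilobase of all annotated exons. Log2 CPM used a prior count of 2. The precision of low genes is limited by counting, and the spread between tumours covers it. The steps were tested on simulated data.

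Alternatives were DESeq2 1.42.0, other scalings and filters, fits of only the groups compared, fits without single libraries, without vehicle initial tumours 2 and 3, or without mitochondrial genome genes, and covariates for the shares of mouse counts and of unnamed rows. For the other gene lists they were added after seeing the data. The 10 genes and the lists were chosen with earlier results of these data known. All 10 genes are named, and of each other list at most the 4 genes with the smallest p at the end of treatment. Outside this rule VEGFB was named for its call after recovery, and 4 receptor genes were named as too low to test. Genes of the nearest pattern are the 8 with the smallest mean absolute difference, among genes with a mean log2 CPM of at least 1. RefSeq promoters were matched by symbol, and a gene with no entry or with several was left unmatched.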

Additional observations from a re-analysis of the deposited data

Results flagged for a closer look

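The palbociclib effect on ADM differed between the stages by the test of the difference itself. The log2 fold change after recovery minus that at the end of treatment was 2.53 ± 0.42 (SE, edgeR adjusted p = 0.037), from palbociclib effects of -0.77 ± 0.27 after recovery and -3.30 ± 0.32 at the end of treatment. ADM was lower in palbociclib than in vehicle tumours without overlap at both stages. The call was lost in 8 of 12 fits without 1 library.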

How the results depend on the processing

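Counts of the 10 genes that passed moved as follows. At the end of treatment 9 passed, but 5 with the mouse share as a covariate, 4 without vehicle initial tumours 2 and 3, and 5 to 9 without single libraries. After recovery 0 passed, 8 without a filter on low counts, and 0 to 0 without single libraries. For the difference of effects 1 passed, but 2 with DESeq2, 5 without a filter (222 higher of 38457 genes), 0 with the share of unnamed rows as a covariate, 0 without vehicle initial tumours 2 and 3, and 0 to 1 without single libraries. Over all genes DESeq2 called 99 of 18628 higher for this difference. In the palbociclib arm 8 were higher after recovery, and 5 to 8 without single libraries. In the vehicle arm 0 passed, and 6 without a filter. After recovery, leaving out the filter kept ANGPTL4 at -1.24 and NDRG1 at -1.25, but their SEs were 0.16 and 0.15 instead of 0.52 and 0.39. The SE of BNIP3L went only from 0.155 to 0.152, and that of ANKRD37 rose from 0.238 to 0.253. Where a covariate or the filter moved a count, the cause was not tested. Fits without libraries had fewer samples.

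Signs turned for 3 genes, none of which passed there. DDIT4 at the end of treatment was -0.011 with the unnamed rows as a covariate and -0.084 without vehicle initial tumours 2 and 3. DDIT4 in the vehicle arm was -0.21 and -0.10 under these settings and between -0.11 and 0.40 without single libraries. ANKRD37 after recovery was 0.074 with the mouse share and between -0.23 and 0.080 without single libraries. The BNIP3L difference of effects was -0.035 without vehicle initial tumours 2 and 3 and between -0.0073 and 0.32 without single libraries. ADM, VEGFA, CA9, NDRG1 and BNIP3 passed in 12 of 12 fits without 1 library, both at the end of treatment and in the palbociclib arm. No paired analysis was possible because the labels give no replicate numbers, and the numbers used here only name tumours in order of deposit. CA9 in palbociclib initial tumours rests on 13 to 19 counts per library, which limits its precision.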
